A study of Homo sapiens with 4 samples.

Results

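A set of 10 genes of cellular zinc handling was followed, out of 26336 genes in the deposited expression table. They are the zinc exporters SLC30A1, SLC30A5 and SLC30A9, the zinc importers SLC39A6, SLC39A10 and SLC39A14, the metallothioneins MT2A, MT1E and MT1X, and the zinc-sensing transcription factor MTF1. They were taken from the table by gene name, and the names had been picked with the treated-against-control results of the same libraries known. Their differences between the groups are therefore a description with no test, and they support nothing on their own. The rest of the same gene families, which is what remained once these 10 genes had been set aside, was tested. The family lists too were chosen with earlier results of these data known, so that test is not independent of them.

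The cells were MDA-MB-231, an established human line from a triple-negative breast cancer, labelled wild type. The 2 groups were cells given the vehicle DMSO and cells given W23-1006, both for 24 h, with 2 libraries in each. The series calls this compound an inhibitor of ALKBH5, an enzyme that removes the methyl mark N6-methyladenosine (m6A) from RNA, and the question is how transcript levels respond to it. The dose is not given in the sources used here. Poly-A RNA was sequenced, and values are read counts that the authors scaled per library.

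Zinc is held at a very low free level in the cytosol by transporters and by binding proteins. Most proteins of the SLC30 (ZnT) family move zinc out of the cytosol, across the plasma membrane or into organelles, whereas those of the SLC39 (ZIP) family move it in. Metallothioneins are small cysteine-rich proteins that bind zinc, cadmium and copper. When zinc rises, MTF1 binds metal response elements in promoters and activates metallothionein genes and SLC30A1.

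Because MTF1 acts through promoter sequence, the 250 bases before the RefSeq start (build GRCh38.p14) are shown for 3 genes whose levels are described below, SLC30A1 (chr1:211579162-211579411, minus strand), MT2A (chr16:56608334-56608583, plus strand) and MT1X (chr16:56682220-56682469, plus strand). Each is written 5′ to 3′ along its gene. Capitals mark matches to the core of the metal response element, searched as TGCACNC and TGCGCNC on both strands, so that a match on the opposite strand reads in reverse complement.
SLC30A1: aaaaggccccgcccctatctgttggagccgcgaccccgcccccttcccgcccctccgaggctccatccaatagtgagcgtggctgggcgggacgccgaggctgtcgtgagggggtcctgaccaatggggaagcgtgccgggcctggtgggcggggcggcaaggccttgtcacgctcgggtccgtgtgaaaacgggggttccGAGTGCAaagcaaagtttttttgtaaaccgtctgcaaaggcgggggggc
MT2A: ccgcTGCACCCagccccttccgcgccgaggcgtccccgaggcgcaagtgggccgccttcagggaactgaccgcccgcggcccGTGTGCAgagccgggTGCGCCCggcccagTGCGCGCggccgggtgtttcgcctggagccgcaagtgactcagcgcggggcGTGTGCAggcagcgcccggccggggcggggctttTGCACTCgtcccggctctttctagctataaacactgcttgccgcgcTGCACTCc
MT1X: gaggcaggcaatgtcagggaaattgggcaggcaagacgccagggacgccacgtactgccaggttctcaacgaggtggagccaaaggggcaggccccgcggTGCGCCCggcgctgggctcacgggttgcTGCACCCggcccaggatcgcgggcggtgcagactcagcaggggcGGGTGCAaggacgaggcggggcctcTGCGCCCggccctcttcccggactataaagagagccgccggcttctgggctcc

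In these windows MT2A held 7 matches, MT1X held 4 and SLC30A1 held 1, and no match overlapped another. The SLC30A1 match, TGCACTC on the opposite strand, began 49 bases before the start. Of all 35116 RefSeq promoter windows of the same length, 24.8% held at least 1 match, 0.37% held 4 or more and 0.0313% held 7 or more. Promoters of 8 of the 10 genes were matched by symbol, and 4 of these held a match, the other being SLC39A6. Of 22 other zinc list genes with a promoter, 11 held a match at 1 or more of their starts, MT1H with 8 and MT1B, MT4 and SLC30A2 with 3 each. The 24.8% counts single windows, whereas several of these genes have more than 1, so the gene counts are not comparable with it. The windows of SLC30A5, SLC30A9, SLC39A10 and MTF1 held none, which says only that these letters are not in them. The RefSeq start of SLC30A1 lies 419 bases beyond the gene end in the deposited table, and that of MT2A lies 385 bases inside the deposited gene. A match is a string of letters and not a measured binding site.

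Depth ranged from 15161460 to 16497283 assigned reads per library, if the smallest positive value of a library stands for 1 read. Whether the libraries of each group are separate cultures is not labelled, so a p-value speaks to the spread among 4 libraries that may be technical repeats. Of the line's markers, VIM ranged from 21063 to 22495 and CD44 from 5260 to 6329 over the 4 libraries. Among the markers that should be low, ESR1 reached 9.64 at most, EPCAM ranged from 45.4 to 85.8 and GATA3 from 175 to 197. PGR, CDH1, PTPRC, CD3E and DCN have no row and were not analysed here. The leukocyte marker CD68 reached 2.98 at most. The sums of 3 endothelial and 3 fibroblast markers, carried by PECAM1 and COL1A1, ranged from 74.5 to 110 and from 84.9 to 120, and their part in the results was not tested. Fewer cells expressing a gene and less RNA per cell cannot be told apart in these bulk samples.

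Per kilobase of gene length, the metallothionein MT2A was by far the most abundant of the 10 transcripts in DMSO. It stood at 5321 ± 117 scaled reads per kilobase (SD, n = 2), above 99.7% of protein-coding genes tested. MT1E followed at 973 ± 117 (SD, n = 2). The importers came next, with SLC39A6 at 606 ± 4.32, SLC39A14 at 386 ± 19.3 and SLC39A10 at 329 ± 17.4 scaled reads per kilobase. The exporters were lower. SLC30A5 was at 186 ± 11.3 and SLC30A9 at 185 ± 5.26, and the libraries of this pair overlapped, so their order is not resolved. SLC30A1 stood at 147 ± 0.342, MTF1 at 90.9 ± 1.78 and MT1X at 40.0 ± 3.06. All other neighbours in this order were separated in both DMSO libraries. With the compound, SLC30A1 reached 229 ± 3.76 scaled reads per kilobase, which put its mean above those of SLC30A5 (202 ± 0.984) and SLC30A9 (211 ± 13.9, SD, n = 2 each). This order rests on the deposited gene lengths. The longest transcript of SLC30A1 equals its gene length of 5474 bases. Those of SLC30A5 (4360 against 5784 bases) and SLC30A9 (6218 against 7225) are shorter. By the length of the longest transcript the compound mean of SLC30A1 lay below those of both, so its lead rests on the deposited gene lengths.

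**Figure D1:**
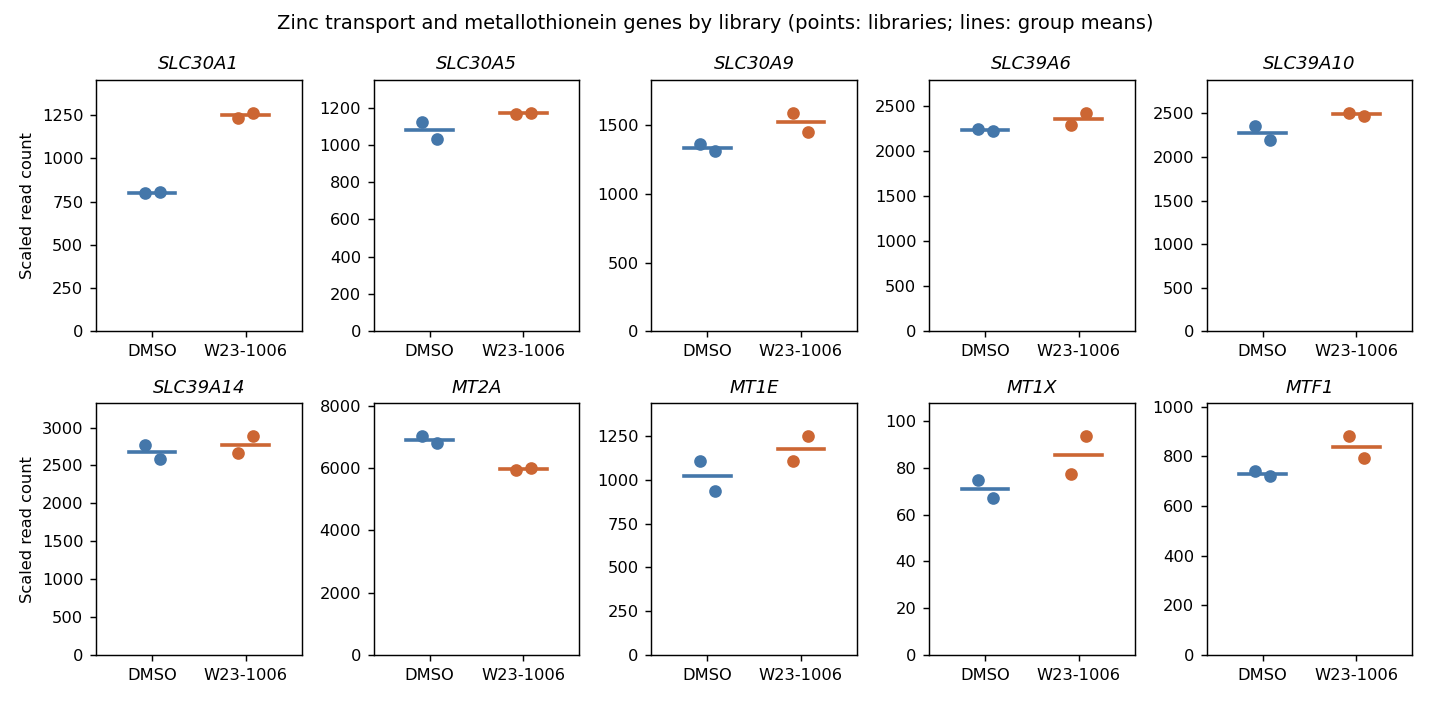
Scaled read count of each of the 10 genes in the 4 libraries, each axis starting at 0; points are libraries and lines are group means. SLC30A1 moved from about 803 to 1252 and MT2A from 6912 to 5966, whereas the points of SLC39A14 and MT1E overlapped between the groups.

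SLC30A1 encodes ZnT1, the zinc exporter of the plasma membrane. Its scaled read count was 801 and 804 under DMSO and 1237 and 1266 under the compound. Both treated libraries lay far above both controls, the means being 803 ± 1.87 and 1252 ± 20.6 (SD, n = 2 each). The ratio was 1.56-fold, a log2 fold change of 0.64 (SE 0.07, 95% interval 0.48 to 0.80) in the limma fit of the 22486 genes tested. The DMSO libraries agreed more closely than counting reads allows on average, since counting alone gives an SD of 28.3 at this level. The standard error quoted here mixes the gene's own variance with that expected at its level from all genes. It therefore rests in part, but not only, on that agreement. SLC30A1 (ENSG00000170385) occupies bases 211571568 to 211578742 of chromosome 1 (GRCh38, minus strand). None of the windows of 50 bases in its longest transcript occurred in a transcript of another gene, and no exon of another gene overlapped its exons.

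The other 2 exporters stood higher with the compound by smaller amounts. SLC30A5, which with SLC30A6 loads zinc into enzymes of the secretory pathway, was at 1124 and 1032 with DMSO and at 1165 and 1174 with the compound. Its groups did not overlap, but the step between the nearest libraries was smaller than the gap within DMSO, and the log2 fold change was 0.12 (SE 0.08). Of its exonic bases 9.20% overlapped AC010273.1 on the opposite strand, and the strand setting of the counts is not given in the sources used here. SLC30A9, a zinc transporter of mitochondria, was at 1364 and 1311 and then at 1593 and 1450. Its groups were separate too, with a log2 fold change of 0.18 (SE 0.07).

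Of the importers, SLC39A6 and SLC39A10 stood slightly higher with the compound and SLC39A14 overlapped between the groups. SLC39A6 and SLC39A10 encode ZIP6 and ZIP10, which form a complex at the plasma membrane. SLC39A6 was at 2243 and 2221 with DMSO and at 2293 and 2431 with the compound, or 0.08 on the log2 scale (SE 0.06). SLC39A10 was at 2360 and 2190 and then at 2510 and 2470, a log2 fold change of 0.13 (SE 0.06). Both genes had separate groups with small steps between the nearest libraries. SLC39A14 encodes ZIP14, which carries iron and manganese as well as zinc, and it was at 2773 and 2584 with DMSO and at 2668 and 2886 with the compound. Its groups overlapped, and the 95% interval of its log2 fold change ran from -0.09 to 0.19.

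The metallothioneins did not move together. MT2A was at 7020 and 6805 with DMSO and at 5930 and 6002 with the compound, so that both treated libraries lay below both controls (6912 ± 152 and 5966 ± 50.9, SD, n = 2 each). Its log2 fold change was -0.21 (SE 0.05), a difference of -13.7%. MT1E was at 1111 and 937 with DMSO and at 1107 and 1251 with the compound. One treated library lay just below the higher control, so the groups overlapped, and the log2 fold change was 0.21 (SE 0.09). MT1X, at 74.7 and 67.1 and then at 77.5 and 93.5, had separate groups and a log2 fold change of 0.26 (SE 0.22) whose 95% interval ran from -0.21 to 0.74. As a ratio within each library, MT2A exceeded MT1E by 6.32-fold and 7.26-fold with DMSO and by 5.36-fold and 4.80-fold with the compound. The MT2A to SLC30A1 ratio was 8.76 and 8.46 under DMSO and 4.79 and 4.74 under the compound.

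These 3 genes lie in the metallothionein cluster on chromosome 16, all on the plus strand. MT2A (ENSG00000125148) spans 56608199 to 56609497 in GRCh38, MT1E (ENSG00000169715) starts 17276 bases further on, and MT1X (ENSG00000187193) starts 74225 bases from MT2A. The genes of the cluster resemble each other, and reads shared among them make their counts uncertain. Of windows of 50 bases, 4.68% of MT2A, 10.6% of MT1E and 14.7% of MT1X occurred in a transcript of another gene, most of those of MT1X in the overlapping gene AC026461.1. MT2A made up 84.2% and 85.5% of the summed metallothionein values with DMSO and 81.4% and 79.9% with the compound.

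MTF1, the factor that senses zinc through its zinc fingers, was at 739 and 719 with DMSO and at 881 and 794 with the compound. Its groups were separate, with a log2 fold change of 0.20 (SE 0.09, 95% interval 0.02 to 0.38). Its transcript level does not measure its activity, which depends on zinc binding.

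Of the 10 genes, 9 had a positive log2 fold change, against 10945 of the 22486 genes tested. The 10 genes had a median of 0.16, against -0.01 over all genes tested. SLC30A1 passed the threshold upward and MT2A downward (limma, adjusted p under 0.05), where 2.15% of all genes tested passed, 0.694% upward and 1.46% downward. The treated libraries lay above both controls for 7 of the 10 genes and below both for 1. Over all genes tested these shares were 22.1% and 25%, and over genes averaging 700 or more, a level that 9 of the 10 genes reached, they were 39.8% and 27.9% (and 6.57% of those genes passed the limma threshold in either direction). The 10 genes were chosen on this contrast, so nothing is read from these counts. In the authors' deposited table SLC30A1 had a log2 fold change of 0.641 with an adjusted p of 1.37e-06 and MT2A one of -0.212 with 0.00505. The authors' deposited table gave the other 8 genes adjusted p-values from 0.213 to 0.715, apart from MT1X. The adjusted p of 1 given there for MT1X can stand for a missing value. Without any one library, no gene of the table passed in the limma fit; the log2 fold change of SLC30A1 then lay between 0.62 and 0.66 and that of MT2A between -0.23 and -0.19. The smaller differences rested more on single libraries. Leaving out each in turn, the log2 fold change lay between 0.08 and 0.33 for MT1E, 0.13 and 0.40 for MT1X, 0.12 and 0.27 for MTF1, 0.06 and 0.18 for SLC30A5, 0.12 and 0.25 for SLC30A9, 0.04 and 0.12 for SLC39A6, and 0.08 and 0.19 for SLC39A10. The lowest value came without DMSO library 2 for MT1E, SLC30A5 and SLC39A10, without compound library 1 for SLC30A9 and MTF1, and without compound library 2 for SLC39A6 and MT1X.

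Transcript GC content moved with the changes across the whole table, and the 10 genes differ in it. Over 12585 better-expressed genes changes and GC content were related by a Spearman rho of -0.658, a description across genes that share the 4 libraries. This trend runs between the groups, and whether it is technical or part of the response was not tested. The GC correction removes it either way. The GC content of the longest transcript was 37.6% to 41.6% for SLC39A10, SLC30A1, SLC30A9, SLC30A5 and SLC39A6. It was 46.7% for MTF1, 47.7% for SLC39A14 and 53.5% to 53.9% for the metallothioneins, against a median of 47.9% over all genes tested. With the GC trend of every library subtracted, SLC30A1 kept a log2 fold change of 0.49 (SE 0.07, 95% interval 0.34 to 0.65), and it was the 1 gene of the 10 that passed the threshold in that fit, where 0.0934% of all genes tested passed, 0.0623% upward and 0.0311% downward. SLC30A1 was chosen on this contrast, so nothing is read from that count. The other exporters and the pair of importers with GC-poor transcripts moved to near 0: SLC30A9 to 0.05 (SE 0.07), SLC30A5 to 0.00 (SE 0.07), SLC39A6 to -0.02 (SE 0.06) and SLC39A10 to -0.02 (SE 0.06).

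The metallothioneins moved the other way under the same correction. MT1E went from 0.21 to 0.29 (SE 0.09, 95% interval 0.10 to 0.48) and MT1X from 0.26 to 0.35 (SE 0.22). MT2A went from -0.21 to -0.12 (SE 0.05), with a 95% interval of -0.22 to -0.01, and did not pass the threshold. These genes have nearly the same GC content, so the trend removed was nearly the same for each, at -0.10 for MT2A and -0.09 for MT1E and MT1X on the log2 scale. MTF1 went from 0.20 to 0.17 (SE 0.08), and SLC39A14 from 0.05 to 0.04. With the correction 6 of the 10 genes had a positive log2 fold change, against 11419 of the 22486 genes tested. The median was 0.05 for the 10 genes and 0.003 over all genes tested, and nothing is read from this.

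**Figure D2:**
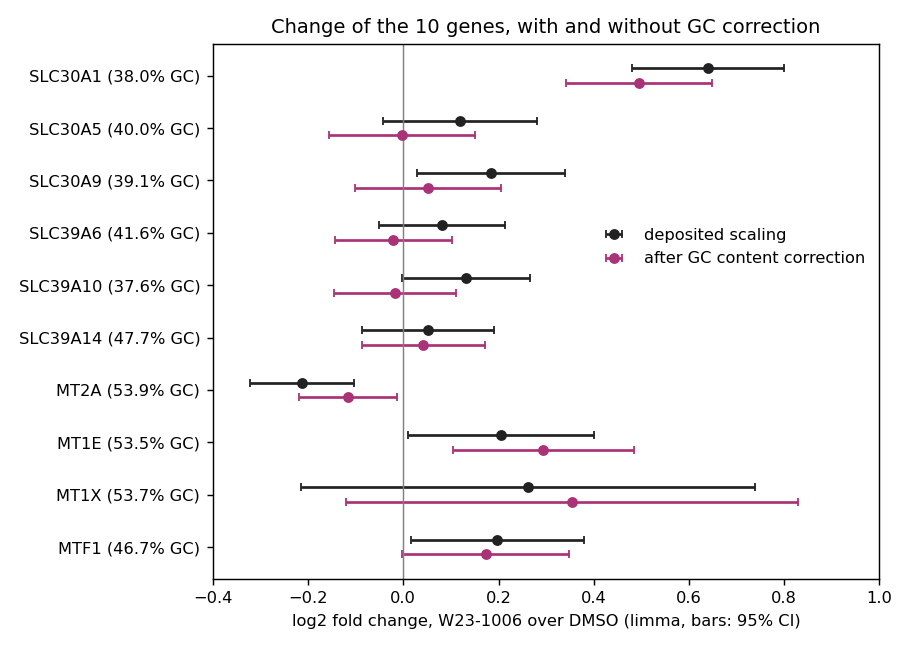
Log2 fold change of the 10 genes with the compound over DMSO, with limma 95% intervals, before and after the GC content correction; the GC content of the longest transcript stands beside each name. SLC30A1 stayed far from 0 in both (0.64 and 0.49), while SLC30A5, SLC39A6 and SLC39A10 moved to within 0.03 of it.

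The wider zinc families held 22 further genes with values, of which 21 reached the mean value of 1 required for testing. Of these 21, 12 had a positive and 9 a negative log2 fold change, and 1 passed the threshold against 2.15% of all genes tested. That gene was SLC39A4, which encodes ZIP4, the importer for dietary zinc whose loss causes acrodermatitis enteropathica. It fell from 201 and 213 with DMSO to 125 and 128 with the compound, a change of -0.70 on the log2 scale (SE 0.15, limma adjusted p = 0.0325). Both treated libraries were well below both controls. With a GC content of 54.8% it went to -0.59 (SE 0.15) under the GC correction and missed the threshold (limma adjusted p = 0.281). In the authors' deposited table SLC39A4 had a log2 fold change of -0.707 with a raw p of 0.00468. Its adjusted p of 1 there can stand for a missing value and is not read as a result. In the same table TMC6 had a larger raw p of 0.00507 but an adjusted p of 0.0553. SLC39A4, an importer at the apical membrane of absorptive cells, was low here, at 41.1 scaled reads per kilobase in DMSO against 606 for SLC39A6.

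Among the exporters, SLC30A6 and SLC30A7 serve the secretory pathway together with SLC30A5. SLC30A6 was at 1726 and 1558 with DMSO and at 1901 and 1917 with the compound, or 0.22 on the log2 scale (SE 0.07, limma adjusted p = 0.114). SLC30A7 was at 2545 and 2400 and then at 2769 and 2898, or 0.20 on the log2 scale (SE 0.06, limma adjusted p = 0.11). Both had separate groups and missed the threshold, and after the GC correction they stood at 0.07 and 0.04. SLC30A3, known as the transporter that fills synaptic vesicles with zinc, was scarce and lower with the compound. It was at 35.9 and 34.1 and then at 11.9 and 14.5, or -1.35 (SE 0.41, limma adjusted p = 0.0951) on a log2 scale that understates the change of scarce genes. The endosomal SLC30A4 overlapped between the groups (log2 fold change 0.07, SE 0.18), and SLC30A8, the transporter of insulin granules, did not exceed 2.06 in any library.

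The remaining importers spread to both sides of 0. SLC39A13, which releases zinc from vesicles of the early secretory pathway, was at 714 and 731 with DMSO and at 599 and 563 with the compound. This was -0.31 on the log2 scale (SE 0.09, limma adjusted p = 0.071), and it went to -0.05 after the GC correction, at a GC content of 62.8%. The log2 fold changes of SLC39A8, SLC39A9, SLC39A11, SLC39A7 and SLC39A3 lay between -0.18 and 0.18 with adjusted p-values of 0.407 or more (limma). SLC39A8, a carrier of zinc, manganese and cadmium, was among them at 0.12 (SE 0.07). SLC39A1, SLC39A2 and SLC39A5 had values under 25 in every library. For SLC39A1, 69.1% of exonic bases are shared with other genes, mainly with AL358472.7, so its value need not show its abundance.

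MT1A, at 124 and 146 and then at 163 and 146, differed by 0.20 on the log2 scale (SE 0.17, limma adjusted p = 0.612). MT1F was scarce, at 5.98 and 6.19 with DMSO and at 10.9 and 21.2 with the compound (limma adjusted p = 0.324). Both treated libraries of MT1F lay above both controls. The pseudogene MT1JP was at 0 or 1 read in each library. TMC6 and TMC8 encode membrane proteins that form a complex with ZnT1. TMC6 was at 1272 and 1264 and then at 1088 and 982, or -0.29 on the log2 scale (SE 0.08, limma adjusted p = 0.0586), which went to -0.03 after the GC correction, at a GC content of 63.1%. TMC8 overlapped between the groups (0.02, SE 0.18), as did ZNF658, a zinc-responsive zinc finger gene (0.32, SE 0.32; 0.06 to 0.58 with each library left out in turn), and TMEM163, a vesicular zinc transporter, which did not exceed 19.9. Of windows of 50 bases, 67.9% of ZNF658 occurred in ZNF658B and 24.8% of TMC6 in TNRC6C-AS1, so their counts are uncertain.

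**Figure D3:**
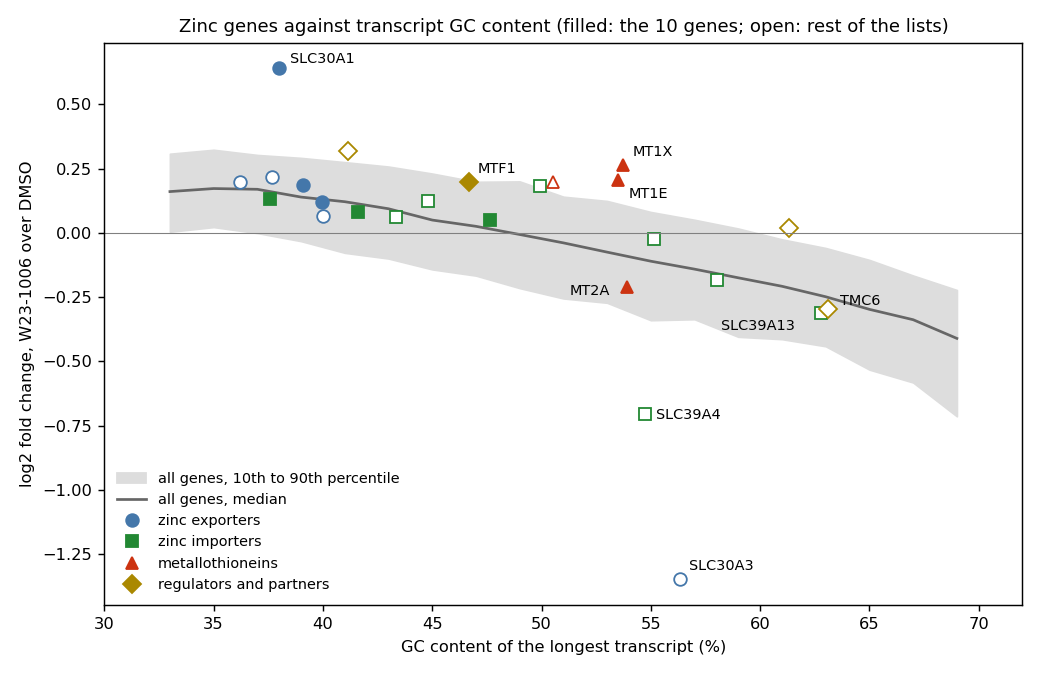
Log2 fold change against the GC content of the longest transcript for zinc genes averaging 20 scaled reads or more; filled symbols are the 10 genes and open symbols the rest of the families. The grey band spans the 10th to 90th percentile of all better-expressed genes in bins of 2 percentage points, with their median as a line. SLC30A1, MT1E, MT1X, MT1A, SLC39A11, ZNF658 and TMC8 lie above the band, SLC39A4 and SLC30A3 below it, and 7 of the 10 genes, MT2A among them, inside it.

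Summed over each family, exporter transcripts were higher and metallothionein transcripts lower with the compound. The 8 exporters summed to 7736 and 7295 with DMSO and to 8809 and 8899 with the compound, a difference in means of 17.8%. Without SLC30A1 the exporter sum differed by 13.3%. These sums carry no GC correction, which took the median log2 fold change of the 8 exporters from 0.18 to 0.04. The 13 importers summed to 13034 and 12718 and then to 12897 and 13615, so their groups overlapped. The 6 metallothionein genes summed to 8335 and 7961 and then to 7288 and 7514, a difference of -9.17%, which MT2A carried. This sum is uncorrected too, and the GC correction took the log2 fold change of MT2A from -0.21 to -0.12. Without MT2A the metallothionein sum was 1315 and 1157 under DMSO and 1358 and 1512 under the compound, higher by 16.1%. These sums include the genes chosen on the contrast and were not tested. An exact two-sided permutation test of 2 libraries against 2 cannot give a p below 0.333.

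**Figure D4:**
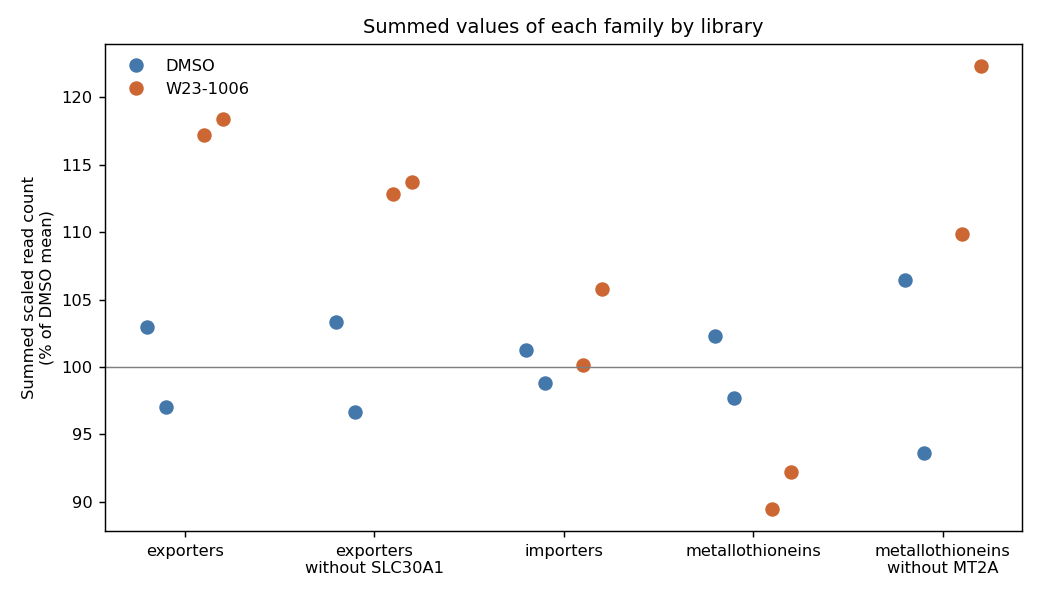
Summed scaled read count of each family in each library, as a percentage of the DMSO mean; points are libraries. The exporter sum differed from the DMSO mean by 17.8% and the metallothionein sum by -9.17%, and the importers overlapped between the groups; the axis does not start at 0.

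Copper handling genes, a list outside zinc transport that shares metallothionein as a binding protein, were set beside these families. None of the 11 rows tested (10 symbols, SCO2 having 2 rows) passed in either direction in limma, and 2 had an unadjusted p under 0.05. With 2.15% of all genes tested passing, so short a list would seldom hold a call, and nothing is read from this. SLC31A2 and both rows of SCO2 did not exceed 6.96 in any library. The median log2 fold change of the 11 rows was 0.01. The copper exporter ATP7A was at 411 and 402 with DMSO and at 493 and 454 with the compound, or 0.22 on the log2 scale (SE 0.10, limma adjusted p = 0.29). Its relative ATP7B was at 163 and 172 and then at 134 and 131 (-0.34, SE 0.16, limma adjusted p = 0.297). The copper importer SLC31A1 overlapped between the groups (0.05, SE 0.07).

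The pattern of SLC30A1 over the 4 libraries was most closely followed, among 10137 protein-coding genes averaging 100 or more, by IRAK1BP1, CLU and NEK3. Their Euclidean distances from it in log2 deviation were 0.0752, 0.0778 and 0.0861, and their log2 fold changes 0.63, 0.64 and 0.60. For MT2A the nearest were DDX39A (0.016), GTSE1 (0.0166) and SOGA1 (0.0193), whose log2 fold changes lay between -0.22 and -0.20. Over 4 libraries such likeness mostly restates the size of the change.

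The letters GGACT, a common form of the sequence in which m6A is found, were counted on the sense strand of each gene's longest transcript. They occurred 4 times in SLC30A1 (0.731 per kilobase), once in MT2A (1.11 per kilobase) and 0 times in MT1E and MT1X. The 10 genes had a median of 0.642 per kilobase, against 0.888 over all genes tested. The methylation of these transcripts was not measured here.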

How the data were processed

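Poly-A RNA from 2 libraries per group was sequenced, per the labels' protocols. The submitters' processing notes name the build GRCh38 and, among tools, DESeq2 1.20.0, featureCounts 1.5.0-p3, HISAT2 2.0.5, fastp and CASAVA; settings, strand included, were not given in the sources used here. The deposited per-library values are a signal: read counts scaled per library, since every value is a whole multiple (within 0.001) of its column's smallest positive value. Depths quoted as reads rest on that step. The libraries of a group differed by more than sampling noise, with a mean chi-square per gene of 2.82 between the DMSO and 4.08 between the compound libraries where counting noise gives 1; this does not show that they are separate cultures. Columns named treatment and control were taken as the compound and DMSO, the labels holding 1 group of each. Per the file headers, log2 fold changes of the authors' own comparison stand beside them. The authors' p-values, raw and adjusted, are there too. In 2 columns the step lay too close to 1 to claim recovered reads, so no count model was fitted, and the planned edgeR alternative was not run.

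Values were tested with limma 3.58.1 (R 4.3.3) on log2(value + 1) with a mean-variance trend over the 22486 genes averaging 1 or more, two-sided, with Benjamini-Hochberg adjustment over all of them at 0.05. Fold changes are on that scale, which understates those of low genes; sums and ratios use the values. The GC correction subtracted a loess curve (span 0.3), fitted per library on genes averaging 5 or more in log2 value, of the deviation from the gene mean on the GC content of the longest GENCODE 29 transcript. Both were run on simulated data whose spread was set by hand, which checks the code and not how well the fits suit these libraries. Gene lengths and coordinates are those of the deposited table; promoters are from RefSeq.

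The 10 genes and all lists were chosen with earlier results of these data known. By the naming rule, all list genes with a row and 3 nearest profiles each for SLC30A1 and MT2A are named; folds are given for genes averaging 20 or more. AC010273.1, AC026461.1, AL358472.7, ZNF658B, TNRC6C-AS1 and the cell type markers are named outside it. List genes without a row were not analysed here. Of the cell type markers, 1 is not reported here. Same-numbered libraries gave no sign of pairing, and alternatives are given below.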

Additional observations from a re-analysis of the deposited data

How the results depend on the processing

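The number of genes passing and the number passing among the zinc families outside the 10 genes depended on the fit (limma adjusted p under 0.05; 484 and 1 as reported). With a pseudocount of 0.1, with no filter or without the mean-variance trend, 0 and 0 passed (3515, 3568 and 1866 genes at an unadjusted p under 0.05). With a pseudocount of 5, 770 and 2 passed, with a filter of 5 CPM in 2 libraries 1475 and 5, with equal library totals 826 and 3, and with limma-voom 1192 and 3. These counts do not share a denominator. The 5 CPM filter left 11097 genes and 13 of the other zinc genes to test, against 22486 and 21 as reported. With no filter 26336 and 22 were tested, and with equal library totals 22512 and 21. With the GC content correction 21 and 0 passed. Leaving out each library in turn gave 0 in all cases (1904 to 3112 genes at an unadjusted p under 0.05); the lone library of a group is then assumed to vary like the other group. With the 5 CPM filter 43.2% of calls were upward and with the GC correction 66.7%, against 32.2% as reported.

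Same-numbered libraries deviated together with a correlation of 0.0436 over 12585 genes, which does not show pairing, and the labels name no shared batch. With a replicate block 1731 genes and 6 of the other zinc genes passed, and with the block and the GC correction together 200 and 1, the latter SLC39A4; MT1E then passed as well, at 0.29.

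SLC30A1 and MT2A kept their signs in every alternative run. Both were chosen on this contrast and had separate groups, so leaving out a library could not reverse them, and nothing is read from this. Neither passed the threshold with a pseudocount of 0.1, with no filter or without the mean-variance trend. With the GC content correction, with or without the block, log2 fold changes reversed for SLC30A5 (-0.0036), SLC39A6 (-0.021), SLC39A10 (-0.018), SLC30A4 (-0.056), SLC39A7 (0.090) and SLC39A9 (-0.014). Leaving out single libraries, the range crossed 0 for SLC39A14 (-0.0050 to 0.11), SLC30A4 (-0.16 to 0.29), SLC39A7 (-0.11 to 0.064), SLC39A9 (-0.043 to 0.17) and TMC8 (-0.21 to 0.25). Apart from the settings above, whose construction differs as stated, the cause was not tested. Depth limits MT1F, MT1X, SLC30A3, SLC39A1 and the other genes under 100 scaled reads.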
